A study of Mus musculus with 17 samples.

Results

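Gad1, Gad2, Slc32a1, Synpr, Sp8, Tshz1, Bcl11b, Calb1 and Calb2 are 9 genes that mark GABAergic interneurons of the olfactory bulb, and their levels were followed from progenitor to young neuron in the dorsal and the lateral lineage of the mouse subventricular zone (SVZ). They were found by gene name in the array files, with older symbols resolved through the files' accessions, which gave 15 of 41174 probes. The brightest probe of each gene was used, so that 9 of 26458 tested genes are described. The cells were GFP+ cells sorted from CD1 mice whose SVZ had been electroporated, in its dorsal or its lateral wall, on postnatal day 1, with no mutation or drug in either group. Each of 17 two-colour arrays held dorsal cells in the Cy3 channel and lateral cells of the same time in the Cy5 channel. The times after electroporation were 8 hours (2 arrays), 1 day (3), 2 days (2), 4 days (3), 7 days (3) and 14 days (4). The labels call the arrays of a time biological replicates and do not say how many animals went into each. The dyes were never swapped, and the labels name the dorsal RNA polyA and the lateral RNA total RNA, so that wall, dye and RNA kind cannot be told apart in a difference between walls. A constant effect of any of them cancels in a change with time within 1 wall.

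Progenitors along the SVZ walls make neuroblasts that migrate to the olfactory bulb and become granule and periglomerular interneurons, most of which release GABA. Gad1 and Gad2 encode the glutamate decarboxylases that make GABA, Slc32a1 the transporter that loads it into vesicles, and Synpr a membrane protein of synaptic vesicles. Sp8, Tshz1 and Bcl11b are zinc finger transcription factors expressed in interneurons of the bulb or their precursors, and Bcl11b is also known from striatal projection neurons. Calb1 (calbindin) and Calb2 (calretinin) are calcium-binding proteins that mark separate interneuron subtypes of the bulb.

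Gad1, Synpr and Sp8 are the members called between 2 and 4 days with both walls averaged, and the 250 bases before a start site of each are shown because each window holds 1 GC box (GGGCGG, searched on both strands, in capitals). They are RefSeq sequences of GRCm38.p6, and all 3 lie on the plus strand. The Gad1 window is chr2:70561879-70562128, the Synpr window is chr14:13284530-13284779 and the Sp8 window is chr12:118846983-118847232.
Gad1: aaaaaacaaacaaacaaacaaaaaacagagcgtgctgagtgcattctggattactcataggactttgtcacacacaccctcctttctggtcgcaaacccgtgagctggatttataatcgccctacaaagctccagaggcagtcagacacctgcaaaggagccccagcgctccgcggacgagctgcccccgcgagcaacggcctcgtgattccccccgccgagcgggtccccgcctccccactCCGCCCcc
Synpr: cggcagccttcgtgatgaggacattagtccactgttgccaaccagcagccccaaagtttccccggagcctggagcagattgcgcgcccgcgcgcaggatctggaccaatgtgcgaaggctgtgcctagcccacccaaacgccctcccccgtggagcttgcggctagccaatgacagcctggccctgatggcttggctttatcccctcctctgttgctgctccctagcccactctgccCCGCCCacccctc
Sp8: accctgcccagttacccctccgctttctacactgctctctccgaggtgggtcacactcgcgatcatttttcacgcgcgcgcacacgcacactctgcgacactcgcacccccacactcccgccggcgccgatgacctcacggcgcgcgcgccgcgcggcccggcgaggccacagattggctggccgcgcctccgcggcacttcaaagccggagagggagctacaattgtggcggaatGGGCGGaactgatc
The box ends close to the start site in each, beginning 8 bases before it in Gad1, 13 in Synpr and 14 in Sp8. Synpr and Sp8 have further start sites, and the windows of those had no GC box. The search covered 9 start sites of 6 members (Gad1, Gad2, Slc32a1, Synpr, Sp8 and Bcl11b), and Tshz1, Calb1 and Calb2 were not searched. Of the 9 windows 3 had a GC box, while 32.7% of all 32851 windows of the same length had one. The homeobox core TAATTA, searched on both strands, was found in 1 of the 9 windows, in another Sp8 start site, and in 4.84% of all windows.

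The 5 genes with more than 1 probe allowed a check of one probe against another. Calb2 had 3 probes, which are shown because the description of this gene rests on how far separate stretches of its transcript changed alike. Probe 1, measured on 10 spots per array and used for the gene, starts at chr8:112667073 of mm9, the build given in the files; probe 2 starts at chr8:112678555 and probe 3 at chr8:112671252, all for a gene on the minus strand. A further sequence is the second Bcl11b probe, at chr12:109153847 on the minus strand, whose values differed from those of the probe that was used.
Calb2 probe 1: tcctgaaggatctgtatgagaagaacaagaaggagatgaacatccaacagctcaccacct
Calb2 probe 2: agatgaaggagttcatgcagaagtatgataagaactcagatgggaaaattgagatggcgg
Calb2 probe 3: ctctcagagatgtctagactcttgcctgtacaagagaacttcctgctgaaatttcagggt
Bcl11b second probe: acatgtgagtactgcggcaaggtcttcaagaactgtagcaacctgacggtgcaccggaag

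The arrays differed in quality. Between 41.5% and 77.0% of spots in the dorsal channel and between 56.8% and 79.7% in the lateral channel were well above background. The median correlation of an array with the others was 0.690 to 0.920, and it was lowest for 1 day replicate 1 (0.690) and 14 days replicate 2 (0.766), so results were also computed without these 2 arrays. Before normalization the dorsal median signal over background was 34.4, 9.2, 40.8 and 48.9 at 14 days, against 202 and 168 at 8 hours. The lateral one was 157.5, 69, 226 and 205.5, against 314 and 395.5. Dorsal values of 31.7 and 37.6 also occurred on 1 day replicate 1 and 4 days replicate 2. Outlier spots made up 1.33% to 2.61% on the 14 days arrays and 0.32% to 0.70% on the others. The part of this in differences at 14 days was not tested. The probes of Gad1, Gad2, Slc32a1, Synpr, Sp8, Tshz1 and Bcl11b were well above background in both channels of all 17 arrays. Calb2 passed, on most of its spots, on 15 dorsal and 16 lateral arrays, and Calb1 on 10 dorsal and 9 lateral arrays. Levels below are log2 normalized intensities of a probe and can be compared between times for 1 gene, not between genes. A comparison of levels between walls also carries dye and RNA kind. In these bulk samples, fewer cells of a type and less RNA per cell cannot be told apart.

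**Figure D1:**
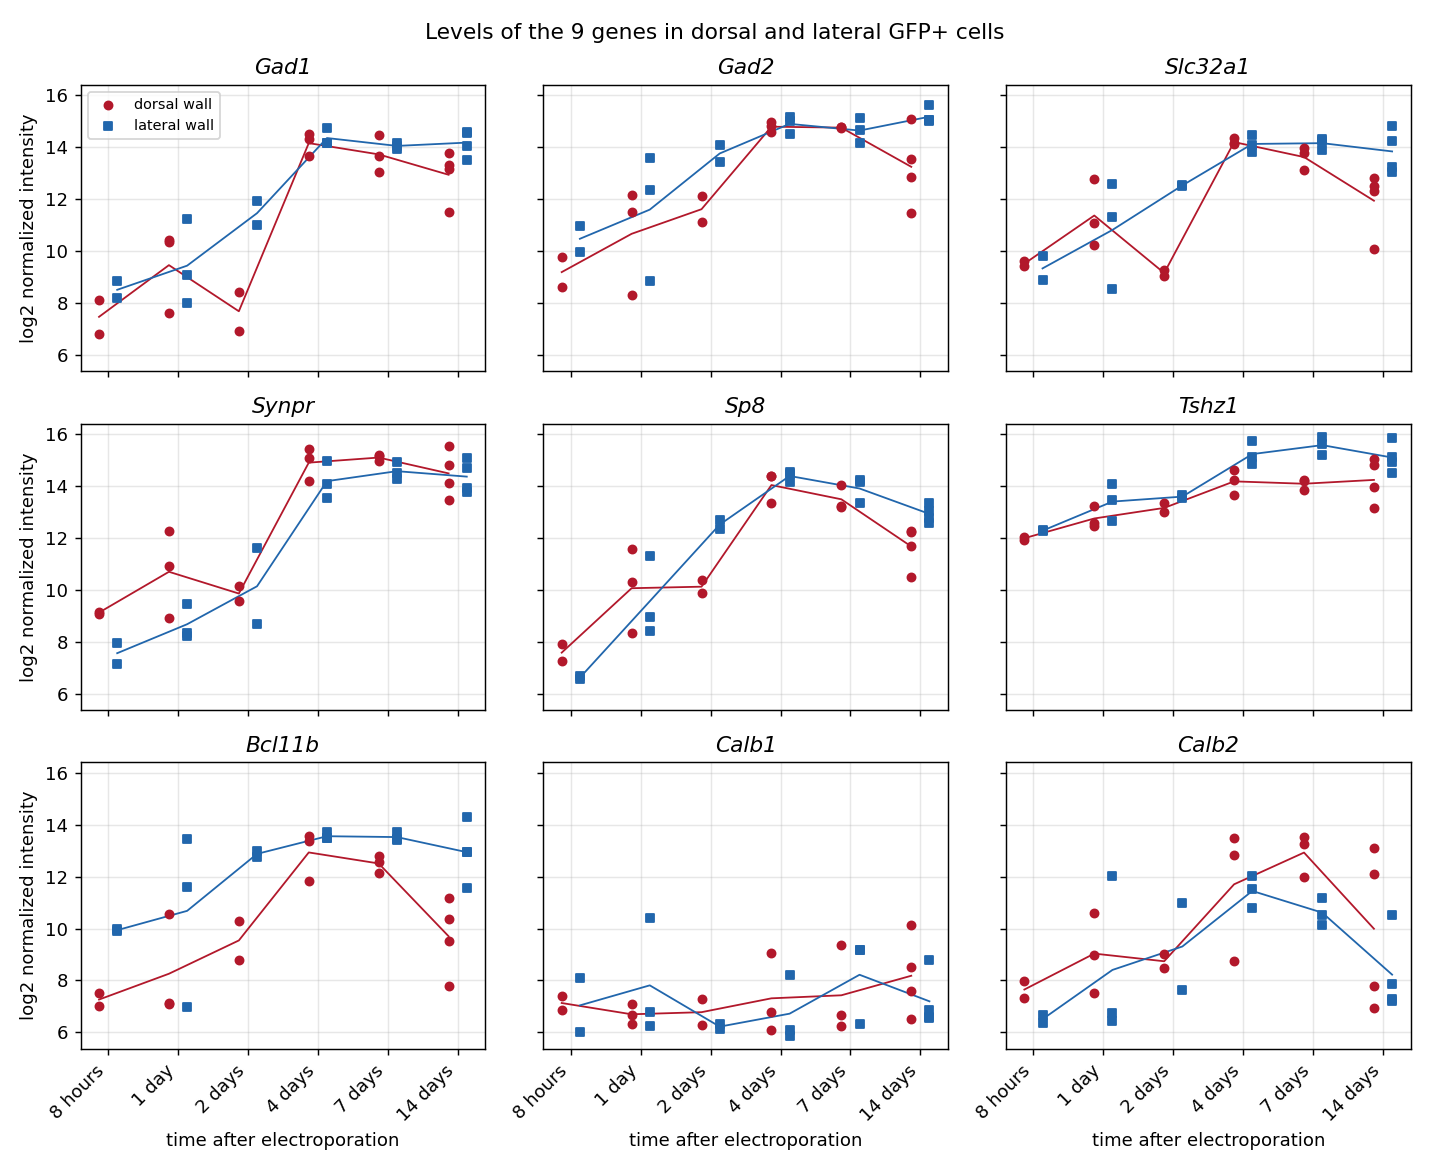
Log2 normalized intensity of each gene (y axis) at 6 times after electroporation (x axis) in dorsal (circles) and lateral (squares) GFP+ cells; each point is 1 array and lines join the means. Gad1 and Synpr at 4, 7 and 14 days lie above all their values at 8 hours, 1 day and 2 days in both walls, while Calb1 shows no such shift.

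Genes of GABA synthesis and vesicles and the factors Sp8 and Tshz1 were higher at 14 days than at 8 hours, and of the 5 steps between neighbouring times that from 2 to 4 days had the most calls with both walls averaged, though 0 in lateral cells alone. In dorsal cells 4 of the 9 genes rose at 14 days against 8 hours, Gad1, Synpr, Sp8 and Tshz1, where 1.52% of all tested genes were called and 0.379% rose (limma, Benjamini-Hochberg adjusted p under 0.05 over all genes). In lateral cells 6 rose, the same 4 with Gad2 and Slc32a1, where 2.44% of all genes were called and 1.39% rose. None of the 9 fell in either wall. The median change of the 9 was 2.44 in dorsal and 4.51 in lateral cells on the log2 scale, against 0.20 and 0.31 for all genes in the same walls. Tested for any change over the 6 times, Gad1, Gad2, Slc32a1, Synpr, Sp8 and Bcl11b changed in dorsal cells (6 of 9; 3.3% of all genes), and Gad1, Gad2, Slc32a1, Synpr, Sp8 and Tshz1 in lateral cells (6 of 9; 4.72% of all genes). With both walls averaged, 7 of 9 changed, all but Calb1 and Calb2 (7.4% of all genes).

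Gad1, the decarboxylase that makes most of the brain's GABA, had levels in dorsal cells of 6.80 and 8.12 (8 hours), 10.45, 10.33 and 7.59 (1 day), 8.43 and 6.93 (2 days), 13.65, 14.34 and 14.50 (4 days), 13.68, 13.05 and 14.46 (7 days) and 13.31, 13.16, 11.51 and 13.79 (14 days). In lateral cells the levels were 8.83 and 8.18 (8 hours), 7.99, 11.24 and 9.08 (1 day), 11.93 and 10.99 (2 days), 14.18, 14.16 and 14.73 (4 days), 14.06, 13.94 and 14.17 (7 days) and 13.52, 14.55, 14.05 and 14.60 (14 days). In both walls every array from 4 days on was above every array up to 2 days, and the dorsal values at 2 days were near those at 8 hours. At 14 days Gad1 was 44.6-fold higher than at 8 hours in dorsal cells (log2 change 5.48 ± 0.84 SE, limma adjusted p = 0.0049) and 51.1-fold higher in lateral cells (5.68 ± 0.67, adjusted p = 4.9e-04). A second Gad1 probe followed the first with r = 0.99 over the 34 channel values and gave changes of 5.38 and 5.31 in dorsal and lateral cells.

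Gad2, the decarboxylase linked to synaptic terminals, had dorsal levels of 9.77 and 8.60 (8 hours), 8.29, 12.18 and 11.52 (1 day), 12.12 and 11.11 (2 days), 14.59, 14.82 and 14.97 (4 days), 14.77, 14.73 and 14.78 (7 days) and 11.48, 13.55, 12.86 and 15.10 (14 days). Its lateral levels were 9.97 and 10.97 (8 hours), 8.86, 13.58 and 12.36 (1 day), 14.08 and 13.45 (2 days), 15.19, 14.51 and 15.01 (4 days), 14.65, 14.17 and 15.12 (7 days) and 15.04, 15.62, 15.04 and 15.03 (14 days). The lateral values from 4 days on were all above the earlier ones, by a narrow margin over the 2 days arrays, whereas in dorsal cells 1 array at 14 days (11.48) lay within the range of the earlier times. The change at 14 days against 8 hours was called in lateral cells (4.71 ± 0.91, limma adjusted p = 0.014) and was 4.06 ± 1.00 in dorsal cells, with adjusted p = 0.069. A second, dimmer Gad2 probe correlated with the first at r = 0.71 and gave 3.35 in dorsal and 3.37 in lateral cells, with adjusted p of 0.15 in each.

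Slc32a1, the vesicular GABA transporter, had dorsal levels of 9.42 and 9.61 (8 hours), 11.10, 12.76 and 10.25 (1 day), 9.26 and 9.04 (2 days), 14.12, 14.34 and 14.15 (4 days), 13.97, 13.77 and 13.13 (7 days) and 10.09, 12.33, 12.84 and 12.51 (14 days). Lateral cells had 8.87 and 9.79 (8 hours), 12.59, 11.33 and 8.53 (1 day), 12.50 and 12.57 (2 days), 14.48, 13.83 and 14.07 (4 days), 14.34, 14.25 and 13.89 (7 days) and 13.06, 14.80, 14.26 and 13.25 (14 days). In lateral cells the late and early arrays did not overlap, and in dorsal cells the 2 days values were as low as those at 8 hours while 1 day reached the 14 days range. The lateral change at 14 days against 8 hours was 4.51 ± 0.84 (limma adjusted p = 0.011), and the dorsal change was 2.43 ± 0.73 (adjusted p = 0.15).

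Synpr, the synaptic vesicle protein synaptoporin, had dorsal levels of 9.08 and 9.16 (8 hours), 8.91, 12.25 and 10.93 (1 day), 10.16 and 9.56 (2 days), 14.20, 15.43 and 15.07 (4 days), 14.95, 15.21 and 15.14 (7 days) and 14.81, 14.13, 13.47 and 15.54 (14 days). Lateral levels were 7.15 and 7.96 (8 hours), 8.22, 9.45 and 8.35 (1 day), 11.60 and 8.67 (2 days), 14.97, 13.53 and 14.07 (4 days), 14.91, 14.29 and 14.52 (7 days) and 13.92, 15.07, 13.77 and 14.69 (14 days). As for Gad1, the arrays from 4 days on and those up to 2 days did not overlap in either wall. In the whole data 0.255% of genes had late arrays all above early ones in dorsal cells and 0.881% in lateral cells; of the 9 genes, Gad1 and Synpr did so in dorsal cells, and Gad1, Gad2, Slc32a1, Synpr and Tshz1 in lateral cells. At 14 days Synpr was 41.2-fold higher than at 8 hours in dorsal cells (5.37 ± 0.75, limma adjusted p = 0.0025) and 112-fold higher in lateral cells (6.81 ± 0.71, adjusted p = 2.0e-04).

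Sp8, a factor needed for several interneuron types of the bulb, had dorsal levels of 7.24 and 7.92 (8 hours), 11.56, 10.28 and 8.34 (1 day), 10.37 and 9.87 (2 days), 14.39, 14.39 and 13.34 (4 days), 14.05, 13.22 and 13.21 (7 days) and 12.22, 11.69, 10.50 and 12.28 (14 days). Lateral cells had 6.55 and 6.67 (8 hours), 8.42, 11.32 and 8.94 (1 day), 12.34 and 12.69 (2 days), 14.54, 14.46 and 14.17 (4 days), 14.14, 14.24 and 13.34 (7 days) and 12.56, 13.33, 12.77 and 13.05 (14 days). Its mean was highest at 4 days in both walls, and all 14 days values lay below all 4 days values in both. A fall from 4 to 14 days was not tested, and the share of all genes with such arrays is not given. The step from 7 to 14 days was not called (limma adjusted p = 0.37 in dorsal and 0.56 in lateral cells). At 14 days Sp8 was still above all its 8 hours values, by 4.09 ± 0.75 in dorsal cells (17.1-fold, limma adjusted p = 0.015) and by 6.31 ± 0.61 in lateral cells (79.6-fold, adjusted p = 9.6e-05).

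Tshz1, a teashirt family factor of migrating interneurons, had dorsal levels of 11.93 and 12.05 (8 hours), 12.56, 12.45 and 13.24 (1 day), 12.99 and 13.33 (2 days), 14.25, 14.64 and 13.66 (4 days), 13.86, 14.18 and 14.23 (7 days) and 13.95, 14.79, 13.17 and 15.05 (14 days). In lateral cells it had 12.30 and 12.26 (8 hours), 12.64, 14.10 and 13.47 (1 day), 13.52 and 13.67 (2 days), 15.73, 14.85 and 15.13 (4 days), 15.90, 15.63 and 15.20 (7 days) and 14.92, 15.84, 15.13 and 14.52 (14 days). The late lateral arrays were all above the early ones, and the groups overlapped in dorsal cells. Its change at 14 days against 8 hours was smaller than those above, 2.25 ± 0.49 in dorsal cells (4.75-fold, limma adjusted p = 0.036) and 2.82 ± 0.44 in lateral cells (7.07-fold, adjusted p = 0.0036). A second Tshz1 probe, at r = 0.74 with the first, gave 0.75 in dorsal and 3.49 in lateral cells, neither called (adjusted p = 0.77 and 0.14), and the dorsal call of the first probe was lost in 7 of 11 other settings, with adjusted p of up to 0.30.

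Bcl11b had dorsal levels of 7.03 and 7.50 (8 hours), 7.14, 7.08 and 10.56 (1 day), 10.31 and 8.78 (2 days), 13.58, 11.85 and 13.38 (4 days), 12.56, 12.81 and 12.16 (7 days) and 9.51, 10.37, 7.77 and 11.17 (14 days). Its lateral levels were 9.91 and 9.97 (8 hours), 6.99, 13.45 and 11.61 (1 day), 13.01 and 12.75 (2 days), 13.72, 13.47 and 13.49 (4 days), 13.74, 13.40 and 13.45 (7 days) and 12.94, 14.31, 12.96 and 11.58 (14 days). Dorsal values were highest at 4 and 7 days and lower at 14 days, whereas lateral values stayed between 11.58 and 14.31 from 2 days on. The dorsal step from 7 to 14 days was not called (-2.81 ± 0.90, limma adjusted p = 0.30). The change over the 6 times was called in dorsal cells (limma adjusted p = 0.024) and not in lateral cells (adjusted p = 0.29), and 14 days against 8 hours was called in neither (2.44 ± 1.03, adjusted p = 0.33, and 3.01 ± 1.24, adjusted p = 0.31). The second Bcl11b probe, at r = 0.66 with the used one, gave 0.37 in dorsal and 1.27 in lateral cells at 14 days against 8 hours. Over the 6 times this second probe was called in neither wall (limma adjusted p over all probes 0.055 in dorsal and 0.065 in lateral cells).

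Calb2, which marks calretinin cells, had dorsal levels of 7.32 and 7.98 (8 hours), 8.99, 7.53 and 10.59 (1 day), 8.48 and 9.01 (2 days), 13.51, 8.77 and 12.85 (4 days), 13.52, 13.28 and 11.997 (7 days) and 6.95, 7.81, 12.11 and 13.12 (14 days). Lateral levels were 6.36 and 6.65 (8 hours), 12.04, 6.73 and 6.46 (1 day), 10.99 and 7.63 (2 days), 11.52, 12.03 and 10.81 (4 days), 10.52, 10.14 and 11.19 (7 days) and 7.19, 7.88, 10.53 and 7.30 (14 days). The dorsal arrays of 14 days differed widely among themselves, with 2 arrays at 12.11 and 13.12 and the other 2 at 6.95 and 7.81, where the probe was not well above background. The change at 14 days against 8 hours was 2.34 ± 1.66 in dorsal and 1.72 ± 1.41 in lateral cells and was not called (limma adjusted p = 0.53 and 0.64). Probes 2 and 3 followed probe 1 with r = 0.84 and 0.91; over the 6 times in lateral cells both were called when all probes were tested (adjusted p = 0.024 and 0.0042), and probe 1 was not (0.28).

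Calb1 ranged from 6.11 to 10.12 in dorsal and from 5.86 to 10.40 in lateral cells, and it was not called in any comparison of times. Its highest dorsal value was at 14 days and its highest lateral value at 1 day, each on 1 array. At 14 days against 8 hours Calb1 changed by 1.05 ± 1.05 in dorsal and 0.16 ± 1.20 in lateral cells (limma adjusted p = 0.67 and 0.97), with a probe that was well above background on about as many arrays as not.

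**Figure D2:**
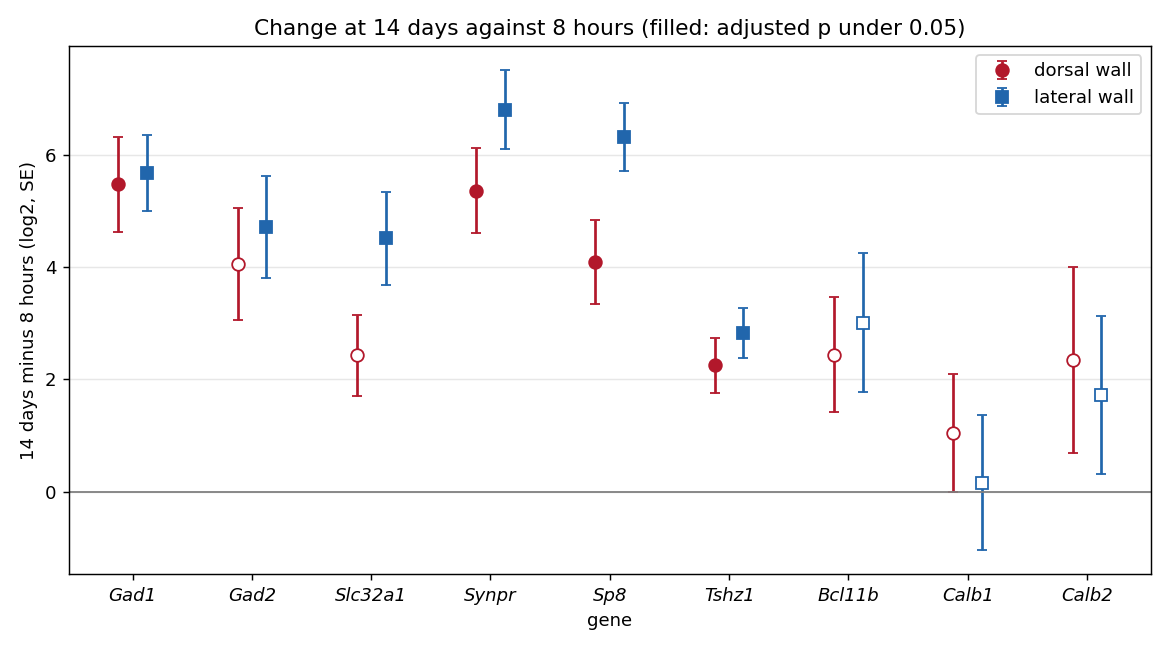
Log2 change at 14 days against 8 hours (y axis) with its standard error for each gene (x axis) in dorsal (circles) and lateral (squares) cells; filled symbols passed an adjusted p of 0.05. Of the 9 genes, 4 are filled in dorsal and 6 in lateral cells, and all filled symbols lie above 2.

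The difference between the walls in this change was tested as well, and no gene of the 9 was called (0 called, with 2 at an unadjusted p under 0.05, and 0.204% of all genes called). Shares of all genes called, here and below, are for an adjusted p under 0.05. No share is given for an unadjusted p, so counts at that threshold have no background beside them. Slc32a1 had the lowest p, with a dorsal change -2.08 ± 0.80 relative to the lateral one (limma adjusted p = 0.59), then Sp8 with -2.22 ± 0.94 (adjusted p = 0.66). A gene called in 1 wall only, such as Gad2 in lateral cells, was therefore not shown to change differently in the other. The dorsal count rests on the 2 arrays of 8 hours: without replicate 1 of that time 0 genes were called and without replicate 2, 2 were, the lone array being taken to vary like the other groups; over all genes these fits called 78 and 118, against 401 with every array. All 14 days arrays lay on 1 slide, so that 14 days and that slide cannot be told apart. Within the 8 arrays read with the same software version, which held both times, 1 gene was called in dorsal cells (Synpr, adjusted p = 0.032) and 4 in lateral cells (Gad1, Gad2, Synpr and Sp8), among 214 and 243 of all genes called in the same walls.

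Between 2 and 4 days Gad1, Synpr and Sp8 rose when both walls were averaged (3 of 9; 0.567% of all genes were called and 0.219% rose). Gad1 rose by 4.69 ± 0.62 (limma adjusted p = 0.0061), Synpr by 4.55 ± 0.62 (adjusted p = 0.0061) and Sp8 by 2.90 ± 0.52 (adjusted p = 0.026). For Slc32a1 the step was 3.32 ± 0.71, with adjusted p = 0.059. In dorsal cells Gad1, Slc32a1 and Synpr rose in this step (3 of 9; 0.461% of all genes called, 0.102% rose), by 6.48, 5.05 and 5.05. In lateral cells 0 of 9 were called (4 at an unadjusted p under 0.05; 0.0643% of all genes called), with Synpr nearest at 4.05 ± 0.74 (adjusted p = 0.066). Sp8 also rose from 8 hours to 1 day, by 2.72 ± 0.52 with both walls averaged (adjusted p = 0.025; 1 of 9, 1.29% of all genes called) and by 2.95 ± 0.64 in lateral cells (adjusted p = 0.048; 1 of 9, 1.06%). The 1 day arrays lay on another slide than the 8 hours arrays and were read with another software version, so that time, slide and version cannot be told apart in this step. In the averaged walls 0 of 9 were called between 1 and 2 days (1 at an unadjusted p under 0.05, with 0.00378% of all genes called), between 4 and 7 days (0 at an unadjusted p under 0.05, with 0.0718% of all genes called) and between 7 and 14 days (3 at an unadjusted p under 0.05, with 0.799% of all genes called). Of the 4 calls over the 5 steps of the averaged walls, 1 was left without 2 days replicate 2, where the step from 2 to 4 days had 19 calls over all genes, against 150 with every array.

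**Figure D3:**
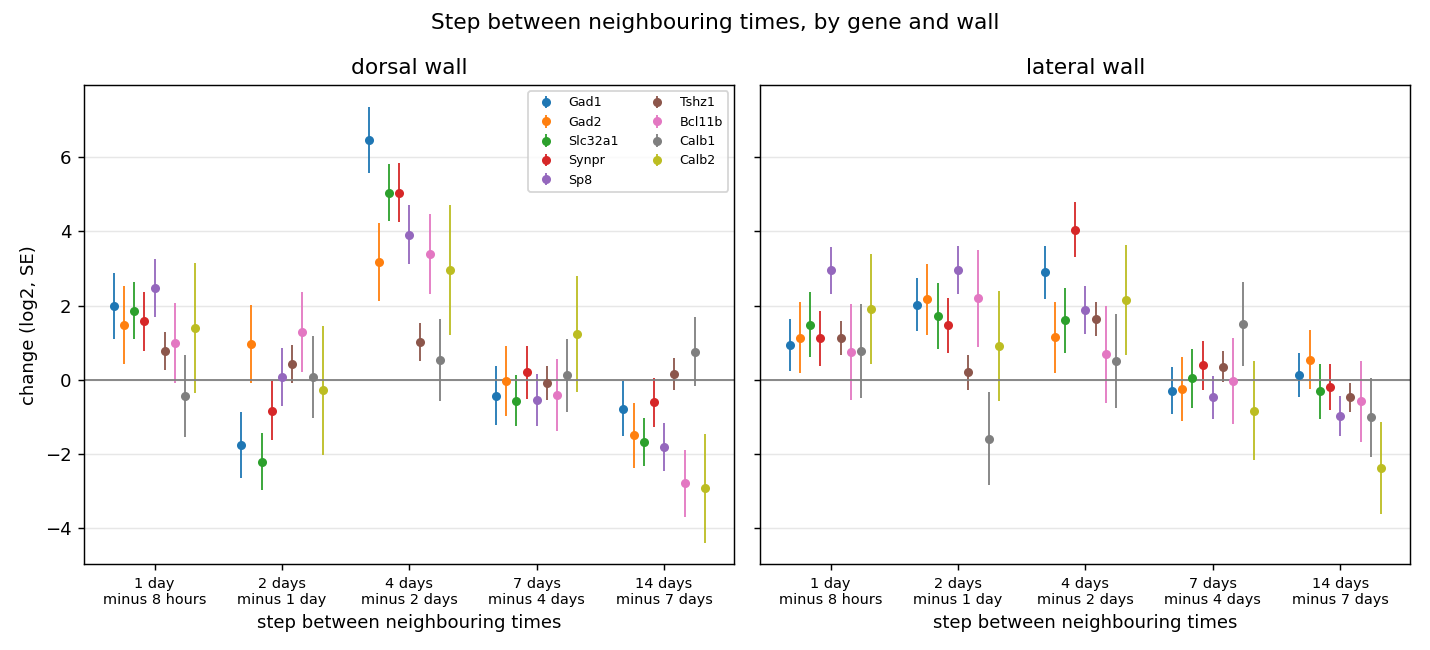
Log2 change between neighbouring times (y axis, with standard error) for each gene in dorsal (left) and lateral (right) cells, by step (x axis). In dorsal cells the values of the step from 2 to 4 days reach 6.48 for Gad1, and in lateral cells they reach 4.05 for Synpr.

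The step from 2 to 4 days could also be read within slides, since slides 3 and 4 each held 1 array of 2, 4 and 7 days. Gad1 was higher at 4 than at 2 days by 5.22 and 7.41 in dorsal cells on these slides, and by 2.25 and 3.17 in lateral cells. For Synpr the dorsal steps were 4.05 and 5.88 and the lateral ones 3.37 and 4.86. Sp8 gave 4.02 and 4.52 in dorsal and 2.20 and 1.77 in lateral cells, and Slc32a1 gave 4.85 and 5.30 in dorsal and 1.99 and 1.27 in lateral cells. With slide as a fixed term the averaged step stayed called for Gad1 (4.50 ± 0.67, limma adjusted p = 0.035) and Synpr (4.55 ± 0.66, 0.035), and Sp8 had 3.12 ± 0.56 with adjusted p = 0.064. In dorsal cells alone Gad1 stayed called in that fit (6.21 ± 0.97, limma adjusted p = 0.041), while Slc32a1 had 5.18 ± 0.87 (0.051) and Synpr 4.99 ± 0.90 (0.076). On slide 1, which held 8 hours with 1 array of 4 days, Gad1 was higher at 4 days than at 8 hours by 7.04 in dorsal and 6.22 in lateral cells, and Bcl11b by 6.12 and 3.55.

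Averaged over the 6 times, Bcl11b, Gad2 and Tshz1 were lower in dorsal than in lateral cells (3 of 9), where 2.38% of all tested genes were called and 1.11% were lower in dorsal cells. No member was called higher in dorsal cells. The median difference of the 9 genes, dorsal minus lateral, was -0.80 on the log2 scale, against 0.02 for all genes. Bcl11b differed most, with -2.22 ± 0.44 (4.66-fold lower, limma adjusted p = 0.023) and lower dorsal values on 16 of 17 arrays. Gad2 had -1.05 ± 0.23 (adjusted p = 0.035, lower on 13 of 17), and Tshz1 had -0.80 ± 0.19 (adjusted p = 0.045, lower on 16 of 17). Of these, Bcl11b and Tshz1 had a lower dorsal mean at each of the 6 times. Gad1 was -1.09 ± 0.28, lower on 14 of 17 arrays, with adjusted p = 0.061, and Slc32a1 was -0.83 ± 0.23, lower on 12 of 17, with 0.084. Synpr lay on the other side, at 0.78 ± 0.25 and higher in dorsal cells on 13 of 17 arrays (adjusted p = 0.14), as did Calb2 at 0.92 ± 0.63 (12 of 17, adjusted p = 0.5). Sp8 had -0.49 ± 0.27 and Calb1 0.05 ± 0.38.

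**Figure D4:**
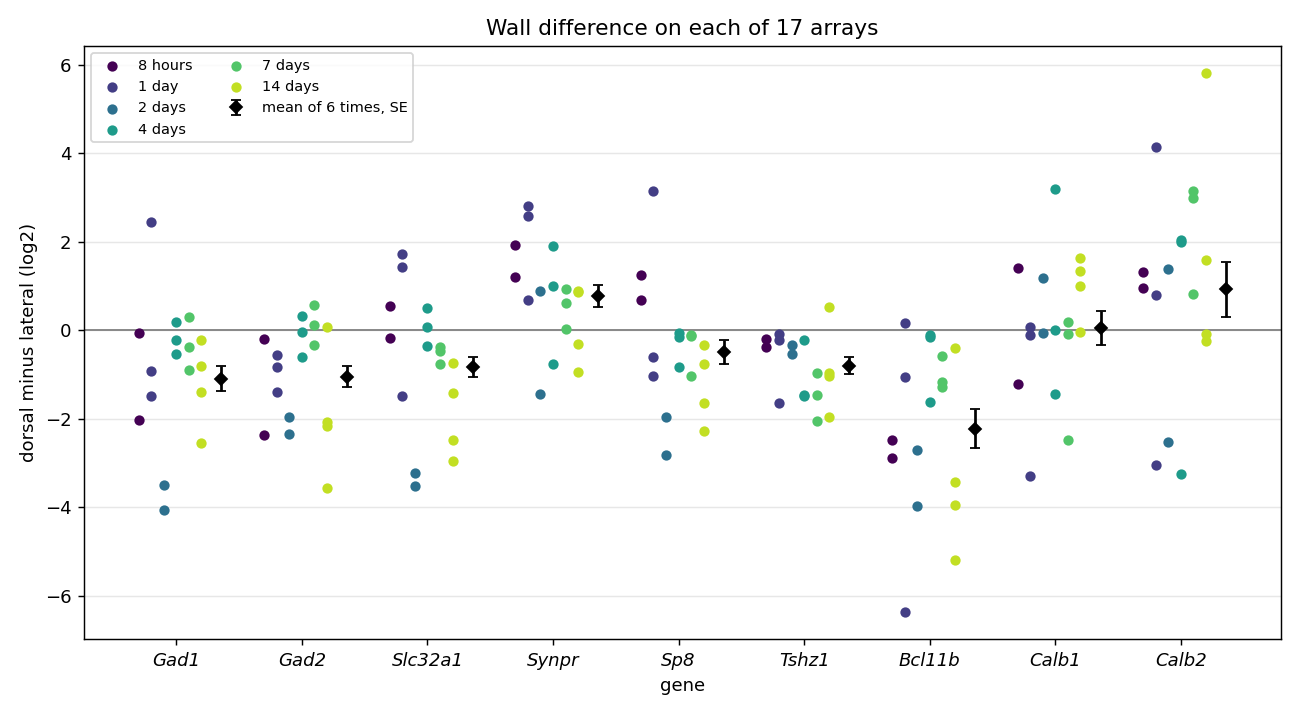
Dorsal minus lateral log2 level on each of the 17 arrays (y axis) for each gene (x axis), coloured by time, with the mean over 6 times and its standard error as a diamond. Bcl11b and Tshz1 lie below 0 on 16 of 17 arrays each, and Synpr lies above 0 on 13.

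These wall calls depended on single arrays and probes. Leaving out 1 array, the count of 3 fell to 0 without 8 hours replicate 2, 2 days replicate 1 or 2 days replicate 2. It fell to 1 without 8 hours replicate 1, 1 day replicate 2 or 3, 4 days replicate 1 or 3, any array of 7 days, or 14 days replicate 3, and was 6 without 1 day replicate 1. Over all genes, where 629 were called with every array, the fits that called 0 of the 9 had 349, 230 and 434 calls, and the fit that called 6 had 1164. Bcl11b was called in 13 of these 17 fits, Gad2 in 6 and Tshz1 in 3. The second probe of Gad2 gave -0.04 ± 0.36, where the used one gave -1.05, and that of Bcl11b gave -0.79 ± 0.28 (adjusted p over all probes 0.19). The second Tshz1 probe gave -0.80 ± 0.25 (0.13), and the second Gad1 probe -0.99 ± 0.31 (0.14). Within the 2 scanner software versions, with 8 and 9 arrays, Bcl11b had -1.83 and -1.88, Gad2 -0.90 and -0.72, and Tshz1 -0.90 and -0.92, and none of the 9 was called (0 and 3 of all genes were).

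**Figure D5:**
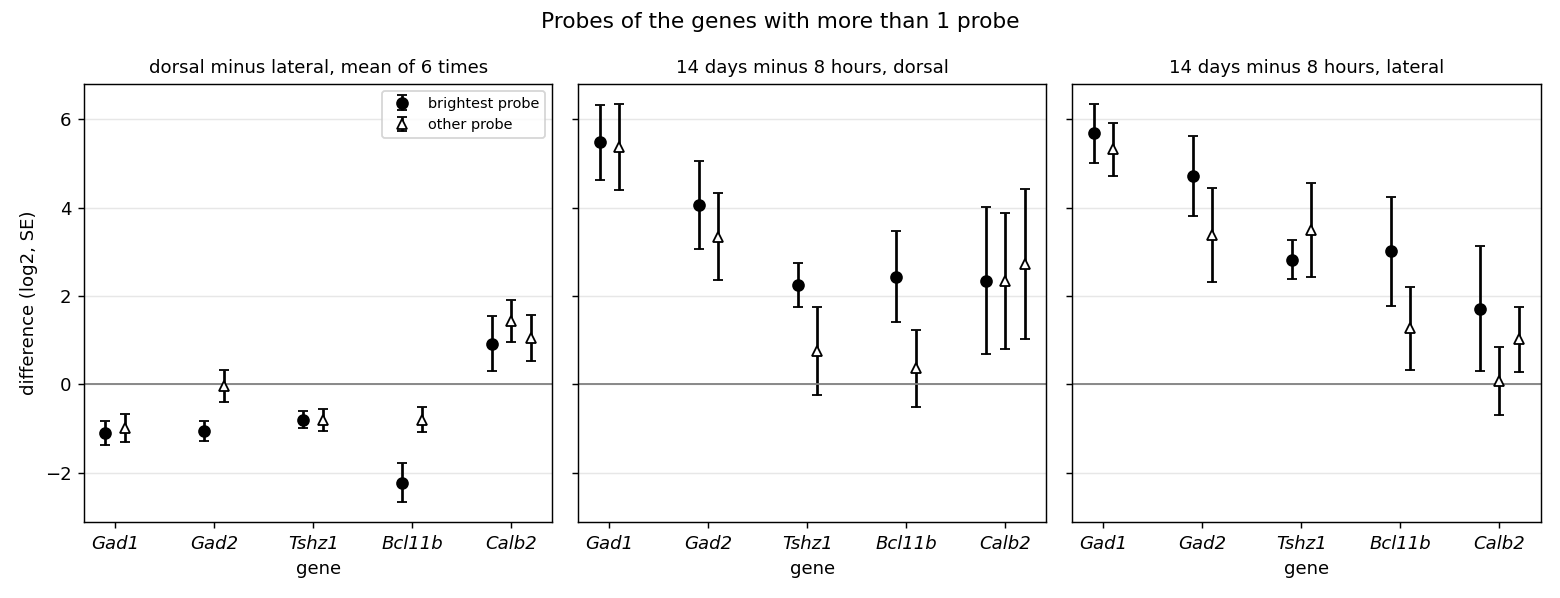
Log2 differences with standard errors (y axis) for the brightest probe (filled circles) and the other probes (open triangles) of the 5 genes with more than 1 probe (x axis): the mean wall difference and the change at 14 days against 8 hours in each wall. The 2 Gad1 probes lie together in all 3 panels, while the other probes of Gad2 and Bcl11b lie nearer 0 than the brightest ones in the wall difference.

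At single times 0 of the 9 genes were called between walls, where 0.378%, 1.1%, 0.181%, 0%, 0.0265% and 0.0227% of all genes were called, in order of time. At an unadjusted p under 0.05, limma gave 1, 2, 5, 1, 1 and 6 of the 9 at these times. The shares just given are for adjusted p, so these counts cannot be set against them. The widest gaps were at 2 days. Gad1 was at 8.43 and 6.93 in dorsal and 11.93 and 10.99 in lateral cells, a difference of -3.78 ± 0.79 (limma adjusted p = 0.11). Slc32a1 differed by -3.38 ± 0.65 (adjusted p = 0.081), Bcl11b by -3.34 ± 1.25, Sp8 by -2.39 ± 0.77 and Gad2 by -2.15 ± 0.66. For these 5 genes both dorsal arrays were below both lateral arrays, and all 5 had an unadjusted p under 0.05. They were picked by their gap at 2 days, so neither adds support to it, and the share of all genes with such arrays is not given. At 4 days the same 5 genes differed by -0.63 to 0.07, and at 14 days by -3.24 to -1.24. The other members did not share this course. At 2, 4 and 14 days Tshz1 differed by -0.44, -1.05 and -0.86 and Synpr by -0.28, 0.71 and 0.12. Calb2 differed by -0.57, 0.26 and 1.77 and Calb1 by 0.56, 0.59 and 0.99. A change of the wall difference over the 6 times was called for 0 of 9 genes (2 at an unadjusted p under 0.05; 0.0984% of all genes), and so was a difference between the early times (8 hours, 1 day, 2 days) and the late times (0 of 9, 0 at an unadjusted p under 0.05; 0.31%).

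Members varied together to different degrees. Across the 34 channel values, which share arrays in pairs, Gad1 correlated with Sp8 at Pearson r = 0.91, with Synpr at 0.89, with Gad2 at 0.85 and with Slc32a1 at 0.85. Bcl11b was nearest to Gad2 (0.86), and Calb2 to Slc32a1 (0.58). Calb1 correlated with the other 8 at -0.05 to 0.23. Among 24745 genes with complete values, those most like Gad1 were Dlx6os1, Zfp704 and Tiam2 (r = 0.93 each). Dlx6os1 is a noncoding RNA of the Dlx5 and Dlx6 locus, and it was also among the 3 most like Gad2 (0.93, after Gdap1 at 0.95 and Tiam2 at 0.94) and Sp8 (0.91, after Nsg1 at 0.92). Zfp704 was also among the 3 nearest genes of Synpr, Sp8 and Tshz1 (0.91, 0.90 and 0.90), with Reep1 and Spon1 nearest Synpr at 0.93 each. Dlx1 was nearest to Bcl11b (0.85) and Cntn2, a cell adhesion protein, to Calb2 (0.75). For Slc32a1 the nearest was Stmn4 (0.88), and for Calb1 Sun5 (0.66).

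Other genes of GABA handling had few calls. Of 10 genes for GABA uptake, breakdown, precursor supply and receptor anchoring, 0 were called at 14 days against 8 hours in either wall, and 0 for any change over the 6 times in dorsal, lateral or averaged values. Slc6a11, a GABA uptake transporter, was higher in dorsal than lateral cells (1.37 ± 0.27, limma adjusted p = 0.026) and was the 1 of the 10 called between walls. Of 16 measured genes of interneuron progenitors and precursors, 3 were lower in dorsal cells, Dlx2 (-1.99 ± 0.11), Dlx1 (-1.91 ± 0.28) and Gsx2 (-0.70 ± 0.10), and 0 were higher. At 14 days against 8 hours 4 of the 16 rose in dorsal cells, Nr2f2 (5.56), Dlx2 (5.39), Bcl11a (5.24) and Dlx5 (4.40), and 3 in lateral cells, Dlx5 (5.11), Dlx2 (2.43) and Meis2 (2.19). Of 15 further markers of olfactory interneuron subtypes, Nos1 was higher in dorsal cells (1.83 ± 0.34) and Tpbg was lower at 14 days than at 8 hours in dorsal cells (-4.67 ± 0.74); the rest were not called in these comparisons.

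Markers of other cell types moved in the same comparisons, and their part in the results above was not tested. Of 8 neuroblast markers, 2 rose in dorsal (Dlx5, Sox4) and 5 in lateral cells at 14 days against 8 hours, among the lateral ones Nrep (5.23), Dcx (5.10) and Tubb3 (4.36), and Sox11 was lower in dorsal cells over all times (-0.76). The mean log2 level of the 8 was 14.43 to 14.82 in dorsal and 14.93 to 15.09 in lateral cells at 4 days, against 12.54 to 12.58 in dorsal and 13.91 to 13.99 in lateral cells at 2 days. Of 8 astrocyte markers, 3 fell between 2 and 4 days with both walls averaged, Gfap (-4.80), Aldoc (-2.75) and Slc1a2 (-2.69), named after their values were seen, and 3 were higher in dorsal cells over all times (Aldoc 1.64, Mlc1 1.47, Gfap 1.12). Of 8 radial glia markers, 3 were higher in dorsal cells, Tnc (2.50), Fabp7 (1.61) and Slc1a3 (1.22), and Tnc (-4.24) and Vim (-2.23) fell at 14 days against 8 hours in dorsal cells. Of 6 ependymal and choroid markers, Ccdc153 (-6.46, limma adjusted p = 0.0061) and Foxj1 (-4.98, adjusted p = 0.048), also named after their values were seen, fell between 2 and 4 days with both walls averaged. Their list's mean log2 level was 7.21 to 7.79 in dorsal and 7.03 to 7.48 in lateral cells at 4 days, against 10.14 to 10.56 in dorsal and 9.38 to 9.50 in lateral cells at 2 days. In the same list Foxj1 fell at 14 days against 8 hours in lateral cells (-4.68), and Kl was lower in dorsal than lateral cells (-0.30). Of 8 proliferation genes, Aurkb (-0.99, adjusted p = 0.0061) and Ccna2 (-0.99, adjusted p = 0.037) were lower in dorsal cells over all times. Of the erythroid genes, Hbb-bt was higher in dorsal cells (3.67, 12.8-fold, adjusted p = 0.0089), and Slc4a1 (-2.64) fell at 14 days against 8 hours in dorsal cells. Of 7 mature neuron markers, Snap25 rose in dorsal (5.40) and lateral (3.96) cells at 14 days against 8 hours. Of 10 markers of glutamatergic cortical neurons, 5 were higher in dorsal cells, Tbr1 (3.12 ± 0.49), Slc17a6 (3.08 ± 0.51), Neurod6 (1.94), Eomes (1.64) and Emx1 (1.64). Their mean log2 level at 2 days was 10.22 to 10.41 in dorsal and 7.05 to 7.19 in lateral cells.

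Of 11 striatal projection neuron markers measured, a cell type that also expresses Bcl11b, Gad1 and Gad2, Tac1 alone was called between walls (0.40 higher in dorsal cells, with a probe well above background on 3 dorsal and 2 lateral arrays), and 0 were called at 14 days against 8 hours. In that list Isl1 was well above background on 0 dorsal and 1 lateral arrays and Ebf1 on 2 and 1, while Ppp1r1b, Drd2 and Adora2a were on all 17 in both. Of 6 markers of interneurons from the medial ganglionic eminence, 0 were called in the wall difference or at 14 days against 8 hours. Of 7 microglia markers, 0 were called in these comparisons, and their mean log2 level ran from 8.9 to 15.2 in dorsal and 11.9 to 16.1 in lateral cells at 14 days. Endothelial markers had 0 of 6 called. Of 8 astrocyte markers, S100b (6.49) alone was called at 14 days against 8 hours in dorsal cells, where the median of the list was -0.24. In lateral cells 0 of the 8 were called. Of 9 oligodendrocyte markers, 1 rose in dorsal and 1 in lateral cells in this comparison, the lateral one being the factor Sox10 (7.47). The list's median change was 3.76 in dorsal and 2.44 in lateral cells, beside 2.44 and 4.51 for the 9 members. In the same order it was 2.41 and 4.18 for neuroblast and 1.99 and 3.24 for mature neuron markers. Radial glia markers had -0.24 and -0.84 and microglia markers -2.06 and -1.96.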

How the data were processed

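Values were intensity on a linear scale, per the file headers; the authors ran 2 versions of Agilent's Feature Extraction software, 10.7.3.1 and 10.5.1.1. The mean signal and median background of each channel were corrected with normexp (offset 50), normalized by loess within arrays and Aquantile between arrays, and turned into log2 levels of each wall, computed here. Outlier spots were set to missing, spots of a probe averaged, and the brightest probe taken per gene. A probe stayed in when 2 or more arrays showed it well above background in 1 of the channels (26458 genes, 26414 where 14 days was tested). Probes were named through accessions (26876) or symbols (3241) of a GRCm38.p6 table, and 11057 kept the files' name. limma 3.58.1 in R 4.3.3 fitted a mean per time to the log ratios, to each wall and to the mean of both walls, with Benjamini-Hochberg adjustment over all genes and a threshold of 0.05.

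The scanner's processed intensity and log10 values of red over green were deposited in the same files, per the file headers; the first was an alternative and the second served to read the deposited table of log2 values. That table correlated with the log10 ratio at r of -0.97 to -0.90 with slopes of -3.29 to -3.03, near -log2 of 10, so that it holds log2 Cy3 over Cy5. Its medians were -0.164 to 0.0459 per array, and how it was normalized is not given in the sources used. Flags of well above background are the scanner software's, per the file headers. No count of molecules lies behind an array value, and the number of arrays limits the precision.

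The wall difference was tested as a mean over the 6 times, at each single time and for change over the times; within walls the change over times, 14 days against 8 hours and the 5 steps were tested. The scripts were tested on simulated data. Named genes were the 9 members with every probe, up to 4 called genes per other list and comparison by size, and the 3 genes most correlated with each member. The members, lists and rules were chosen with earlier results of these data known. Same-numbered arrays of different times did not deviate together (mean r = 0.027 over 36 pairs, 5 above 0.1).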

Additional observations from a re-analysis of the deposited data

Results flagged for a closer look

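In lateral cells at 14 days, Gad2 was at 15.6 on replicate 2 and at 15.03 to 15.04 on the other 3 arrays, so that the gap made up 0.984 of the whole range. Calb1 was at 8.77 on replicate 3 of the same group and at 6.57 to 6.87 on the other 3, with a gap of 0.865 of the range. Of the 27 groups of 4 values examined, these 2 exceeded Dixon's limit, and chance flags about 1 in 20 groups.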

How the results depend on the processing

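The mean wall difference, with 3 of 9 genes called, had 1 under scanner processed signals, the software version as a block or the deposited value table, 0 with the replicate block, 5 with array weights, 6 with median centring or slide as a random block, and 7 without 1 day replicate 1 and 14 days replicate 2 together. Over all genes, where 629 were called, these settings called 237, 521 and 282, then 168, 1377, 6156 and 3310, and 1389. The calls at the 6 single times added up, 0 in all, came to 5 with median centring, 1 with quantile normalization, 2 with array weights, 6 with slide as a random block and 2 without those 2 arrays. The change of the wall difference with time, with 0 called, had 1 with slide as a random block. At 14 days against 8 hours in dorsal cells, with 4 called, slide as a random block gave 7, and 4325 of all genes against 401. The 5 steps, with 4 calls, had 15 with array weights, 8 with slide as a random block and 12 without the 2 arrays; over all genes the step from 2 to 4 days alone had 2201, 132 and 605 calls in these settings, against 150. The consensus correlation within slides was -0.17 in the fit of the log ratios, and it was not recorded for the fits of levels. The cause of these moves was not tested.

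Leaving out 1 array at a time gave 0 to 6 genes for the mean wall difference, 0 to 2 for the calls at single times added up, 0 to 1 for change of the wall difference with time, 0 to 0 for early against late times, 4 to 7 and 4 to 8 for change with time in dorsal and lateral cells, 0 to 6 and 4 to 7 for 14 days against 8 hours in dorsal and lateral cells, 1 to 6 for the steps and 0 to 0 for the change that differs between walls. Of 405 values of single genes under other settings, 352 kept their direction and side of the threshold, 19 lost and 32 gained a call, 2 uncalled ones moved and 0 reversed. The replicate numbers followed the slides at some times. Replicate 1 of 2, 4 and 7 days lay on slide 3, replicate 2 of these times on slide 4, and replicate 3 of 4 and 7 days on slide 1. The replicate block was therefore in part a block by slide, and it moved no other count by over 1.5 times. Slide as a fixed block could be estimated only for the steps from 2 to 4 and 4 to 7 days. Signal over background limits Calb1 and part of the Calb2 values.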
